A study of Mus musculus with 36 samples.

Results

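This comparison set livers of wild-type (WT) C57BL/6 mice taken at lights-off, Zeitgeber time (ZT) 12, beside livers taken at lights-on, ZT 0. It compared 6 arrays, 3 at each time, chosen by their titles from the 36 arrays of the series. The estimate of spread behind its tests came from all 36. The series measured liver RNA on Affymetrix arrays every 4 h from ZT 0 to ZT 20, with light and dark of 12 h each, in WT mice and in TB mice of the same strain. TB mice carried the genotype KrasLSL-G12D;p53fl/fl and had lung adenocarcinoma, so their tumour lay outside the tissue measured. The 6 TB arrays of ZT 0 and ZT 12 are used below to show where the WT difference also appeared. The age and sex of the mice, and the agent that recombined the TB alleles, are not stated in the sources used. The labels do not say whether each array held 1 animal, so p-values measure the spread between arrays.

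The circadian clock of the liver is a feedback loop of transcription. The activators ARNTL (BMAL1) and CLOCK, or its relative NPAS2, bind E-boxes and raise the genes of their own repressors, the PER and CRY proteins. A further loop joins REV-ERB receptors, which repress Arntl, and ROR receptors, which activate it. PAR bZIP factors such as DBP carry the rhythm to enzymes and transporters. In a nocturnal animal ZT 12 is the end of the resting phase and ZT 0 the end of the main feeding phase, so clock and feeding differ together between these times.

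The library labelled WT ZT 12 replicate 3 held RNA of skeletal muscle. All values are log2(intensity + 16), a scale on which an intensity of 0 lies at 4. Of the 30 muscle markers, 30 were highest in that array, with a median excess of 6.06 over the median of the other 5 arrays. Titin (Ttn) was at 16.77 in it and at 5.33 to 5.54 in the other 5, and muscle creatine kinase (Ckm) was at 16.74 against 5.87 to 6.37. The markers' mean level was 11.6 in that array and 5.68 to 5.91 in the others, while the mean of the 12 measured hepatocyte markers lay at 12.3 to 12.6 in all 6. It correlated with the other ZT 12 arrays at 0.928 and 0.935, against 0.982 between those arrays and 0.969 to 0.985 within ZT 0. Counts and the genes described in detail are therefore given with it and without it, and a value with no other mark is from all arrays. The values of the WT groups' other markers are given beside the results they move with.

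With all arrays, 338 of 22180 genes (1.52%) passed the test, which was limma's moderated test with a Benjamini-Hochberg adjusted p under 0.05. Of these, 208 rose from ZT 0 to ZT 12 (0.938% of all genes) and 130 fell (0.586%). Without WT ZT 12 replicate 3 the count was 261 (1.18%), with 164 rises (0.739%) and 97 falls (0.437%). The 2 calculations shared 196 genes, 118 higher and 78 lower at ZT 12, and all 196 had the same direction in both. A further 142 passed only with that array, and 65 only without it. The median over all genes was 0.01, and the median size of the called differences was 0.79 with the array and 0.86 without it. Of the 338 genes, 55 rose and 47 fell by more than 1 on the log2 scale.

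The count depended on single arrays. It was 722 without WT ZT 12 replicate 1, 208 without WT ZT 0 replicate 1 and 223 without WT ZT 0 replicate 2. With the spread estimated from the 6 WT arrays alone, 56 genes passed. Quantile normalization of the arrays turned the split from 208 higher and 130 lower to 176 higher and 220 lower, and from 164 and 97 to 128 and 122 without WT ZT 12 replicate 3. Over all genes, the 3 arrays of ZT 12 lay above the 3 of ZT 0 in 1559 (7.03%) and below them in 1173 (5.29%). Of the 338 called genes, 328 had groups that did not overlap.

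Core clock genes were among the largest differences. The activators were high at ZT 0 and low at ZT 12. Arntl, which encodes BMAL1, read 8.72, 8.75 and 9.03 at ZT 0 and 6.39, 5.36 and 5.85 at ZT 12. Npas2 read 8.84, 8.68 and 8.84 at ZT 0 and 5.00, 5.32 and 5.58 at ZT 12. In both genes every ZT 0 array lay above every ZT 12 array by more than the spread within either time. Arntl fell by 2.96 (SE 0.19, adjusted p = 1.37e-11) and Npas2 fell by 3.49 (SE 0.26, adjusted p = 1.84e-10). Clock, the third activator, moved less. It went from 9.69, 9.84 and 9.60 to 8.90, 8.76 and 8.65, and fell by 0.94 (SE 0.14, adjusted p = 0.000147). Without WT ZT 12 replicate 3 the falls were 2.95, 3.63 and 0.88, and all 3 of 3 activators passed either way.

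Among the repressors, Per1, Per3 and Ciart rose and Cry1 ran the other way. Per1 read 6.44, 6.37 and 5.50 at ZT 0 and 8.74, 8.73 and 8.79 at ZT 12, where the 3 arrays were almost level. The difference was 2.65 (SE 0.34, adjusted p = 9.34e-06). Per3 went from 4.64, 5.75 and 5.50 to 7.57, 8.09 and 7.98 (difference 2.58, adjusted p = 1.04e-09). Ciart, which encodes the repressor CHRONO, went from 5.29, 4.75 and 5.06 to 7.57, 7.96 and 8.12 (difference 2.85, adjusted p = 2.25e-09). These 3 differences were 2.63, 2.53 and 2.73 without WT ZT 12 replicate 3, and all 3 passed. The ZT 0 values of Per3 and Ciart lay near the bottom of the scale, where the added 16 makes a difference on this scale smaller than the fold of the intensities. The same applies to other genes with similarly low values at ZT 0 or ZT 12, among them Npas2, Dbp, Noct, Rgs16, Wee1 and Slc2a4.

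The cryptochromes differed by less and in opposite directions. Cry1 read 7.25, 7.45 and 7.92 at ZT 0 and 6.83, 6.88 and 6.84 at ZT 12, so all ZT 12 arrays lay below, and it fell by 0.69 (adjusted p = 0.0422). It was again 0.69 lower without WT ZT 12 replicate 3 and did not pass (adjusted p = 0.108), and its call was also lost when any other array but WT ZT 0 replicate 1 was left out (adjusted p from 0.0628 to 0.275). Cry2 read 7.02, 6.78 and 6.98 at ZT 0 and 7.56, 7.83 and 7.28 at ZT 12, a difference of 0.63 (adjusted p = 0.0485). It was 0.77 (adjusted p = 0.0243) without WT ZT 12 replicate 3, and its call was lost when any of the other 5 arrays was left out, with adjusted p from 0.0674 to 0.23. Counted as a list, 4 of 5 measured repressors rose and 1 fell with all arrays, and 4 rose and 0 fell without WT ZT 12 replicate 3.

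**Figure D1:**
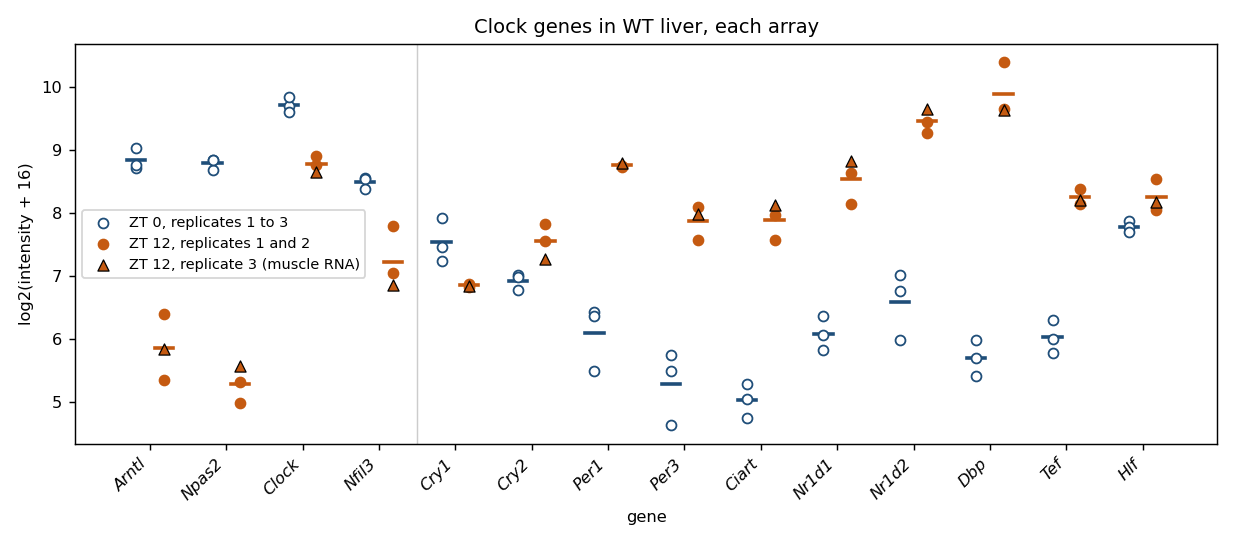
Each point is the log2(intensity + 16) of 1 gene on 1 WT array, with open circles for ZT 0, filled circles for ZT 12 replicates 1 and 2, a triangle for ZT 12 replicate 3, and bars for group means. Arntl and Npas2 drop from 8.68 or more to 6.39 or less and Dbp climbs from 6.00 or less to 9.62 or more, and the triangle lies with the circles for these genes although that array holds muscle RNA.

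The REV-ERB receptors, nuclear receptors that repress Arntl, rose. Nr1d1 (REV-ERB alpha) read 6.07, 5.83 and 6.36 at ZT 0 and 8.15, 8.63 and 8.82 at ZT 12 (difference 2.45, SE 0.37, adjusted p = 0.00017). Nr1d2 (REV-ERB beta) went from 5.99, 6.76 and 7.02 to 9.26, 9.44 and 9.65 (difference 2.86, SE 0.28, adjusted p = 8.6e-08). Both passed without WT ZT 12 replicate 3, at 2.30 and 2.76. The other 3 measured genes of this loop did not pass: Rora, an activator of Arntl, was at -0.05, and the DEC repressors Bhlhe40 and Bhlhe41 were at 0.45 and 0.77. In Bhlhe41 the largest ZT 12 value, 7.16, was that of WT ZT 12 replicate 3, and the difference was 0.36 without it.

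The PAR bZIP factors lay high at ZT 12 and their antagonist Nfil3 low. Dbp read 5.43, 5.71 and 6.00 at ZT 0 and 9.64, 10.39 and 9.62 at ZT 12, a gap many times the spread at either time. Its difference was 4.17 (SE 0.24, adjusted p = 1.98e-12), and 4.30 without WT ZT 12 replicate 3. Tef went from 5.79, 6.31 and 6.00 to 8.15, 8.38 and 8.20 (difference 2.21, adjusted p = 1.71e-08). Hlf, the remaining PAR bZIP factor, read 7.87, 7.78 and 7.70 and then 8.04, 8.54 and 8.17, and its 0.47 did not pass (adjusted p = 0.102). Nfil3, a repressor at the same D-box sites, went from 8.55, 8.54 and 8.38 to 7.79, 7.04 and 6.86 and fell by 1.26 (adjusted p = 2.38e-05). Tef was at 2.23, Hlf at 0.51 and Nfil3 at -1.07 without WT ZT 12 replicate 3, with the same calls.

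Of 10 measured kinases, ligases and other clock modifiers, 3 rose with all arrays and 2 of these without WT ZT 12 replicate 3. Usp2, a deubiquitinase, read 6.62, 6.68 and 6.88 at ZT 0 and 9.70, 9.71 and 10.09 at ZT 12 (difference 3.11, adjusted p = 2.09e-11). Nampt, the rate-limiting enzyme of NAD salvage, went from 7.29, 7.74 and 7.98 to 9.12, 8.96 and 8.98 (difference 1.35, adjusted p = 0.000854). They were at 2.98 and 1.37 without WT ZT 12 replicate 3. Noct (Nocturnin) was at 2.01 with all arrays (adjusted p = 0.0426) and at 1.91 without WT ZT 12 replicate 3, where it did not pass (adjusted p = 0.127). Its call was also lost without any 1 of the 3 ZT 0 arrays and without WT ZT 12 replicate 2. The kinase gene Csnk1e, at 0.56, just missed the threshold (adjusted p = 0.0501) and was at 0.36 without WT ZT 12 replicate 3.

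Promoter sequences show which of these genes hold an E-box, the site of the activators, close to their start. The 250 bases before the annotated start were searched on both strands, in RefSeq promoters of GRCm38.p6. A gene with several starts has several windows and counts once. Windows were found for 102 of the 118 genes higher at ZT 12 in both calculations and for 64 of the 78 lower. The motifs were the E-box CACGTG, the D-box TTANGTAA, the ROR element ANTNGGTCA and the cAMP response element (CRE) TGACGTCA. Matches of different motifs can share bases at their ends. The E-box occurred in a window of 23 of the higher genes (22.5%), of 7 of the lower genes (10.9%) and of 7.83% of all 16990 genes with a window. These shares are descriptions with no test. Tef, Cry1 and Ppp1r3c are shown as a riser, a repressor and a faller with 1 E-box in the window printed, and Tubb2a as the faller with a CRE; capitals mark the motif, and each line runs 5′ to 3′ on the gene's strand. Tef has 2 windows, each with 1 E-box, and the window before its outermost start is shown.
Tef, chr15:81802423-81802672, plus strand: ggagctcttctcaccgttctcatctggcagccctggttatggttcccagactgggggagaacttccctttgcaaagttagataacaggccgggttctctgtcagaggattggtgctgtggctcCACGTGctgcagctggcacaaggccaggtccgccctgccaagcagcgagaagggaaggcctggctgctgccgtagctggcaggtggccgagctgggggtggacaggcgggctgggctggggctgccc
Cry1, chr10:85185055-85185304, minus strand: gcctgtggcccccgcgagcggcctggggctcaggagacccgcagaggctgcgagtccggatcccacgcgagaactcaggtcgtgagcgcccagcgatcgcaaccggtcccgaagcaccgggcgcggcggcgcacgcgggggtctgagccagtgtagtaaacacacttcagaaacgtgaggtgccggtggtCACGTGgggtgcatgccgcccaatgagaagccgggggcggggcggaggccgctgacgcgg
Ppp1r3c, chr19:36736605-36736854, minus strand: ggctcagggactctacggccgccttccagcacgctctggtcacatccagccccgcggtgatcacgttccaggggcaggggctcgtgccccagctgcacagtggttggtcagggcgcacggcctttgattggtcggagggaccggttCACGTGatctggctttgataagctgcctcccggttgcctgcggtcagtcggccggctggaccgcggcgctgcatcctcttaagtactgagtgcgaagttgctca
Tubb2a, chr13:34078009-34078258, minus strand: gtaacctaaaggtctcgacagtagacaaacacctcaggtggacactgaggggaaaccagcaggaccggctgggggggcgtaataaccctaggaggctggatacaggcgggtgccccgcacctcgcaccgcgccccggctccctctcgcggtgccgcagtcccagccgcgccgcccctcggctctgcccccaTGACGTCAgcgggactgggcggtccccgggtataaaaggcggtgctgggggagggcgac

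The other motifs were rarer. A D-box was held by 7 of the higher genes (6.86%), by 1 of the lower (1.56%) and by 2.21% of all genes. An ROR element was held by 6 of the higher (5.88%), 4 of the lower (6.25%) and 2.00% of all. A CRE was held by 1 of each (0.98% and 1.56%) and by 2.30% of all. The E-boxes of Tef and Ppp1r3c stand before genes that moved in opposite directions between ZT 0 and ZT 12, and a match is a description of letters, not a bound site. Among the clock genes described so far, Per1 and Bhlhe41 also held 1 E-box each, Ciart 3, Per3 a D-box in 2 places, Nfil3 an ROR element and Hlf a CRE. None of the motifs was found in the windows of Arntl, Npas2, Clock, Cry2, Nr1d1, Nr1d2, Rora, Dbp, Usp2, Nampt, Noct or Csnk1e.

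Beyond the core clock, the largest rise was that of Rgs16, which encodes an inhibitor of G protein signalling. Rgs16 read 5.27, 4.57 and 5.72 at ZT 0 and 8.74, 10.45 and 9.35 at ZT 12, with a wide spread between the ZT 12 arrays (difference 4.33, SE 0.65, adjusted p = 0.000132). Mfsd2a, a transporter of lysophosphatidylcholine, went from 7.54, 7.73 and 7.57 to 10.35, 11.04 and 10.93 (difference 3.16, adjusted p = 0.000932). Gpcpd1, a phosphodiesterase that releases glycerol phosphate from glycerophosphocholine, went from 8.12, 7.90 and 7.99 to 10.14, 11.14 and 10.70 (difference 2.65, adjusted p = 3.64e-06). In these 3 genes no ZT 12 array came near the ZT 0 range. Upp2, a uridine phosphorylase, rose by 2.54 (adjusted p = 4.7e-07). Wee1, the kinase that holds cells out of mitosis, went from 5.40, 5.18 and 5.47 to 7.65, 8.12 and 7.53 (difference 2.42, adjusted p = 2.25e-09). The 5 differences without WT ZT 12 replicate 3 were 4.41, 3.08, 2.64, 2.58 and 2.53, and all 5 passed.

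Slc2a4, the insulin-responsive glucose transporter GLUT4 of muscle and fat, stood apart among the 15 largest rises. It read 5.23, 4.76 and 4.52 at ZT 0 and 5.88, 5.73 and 9.07 at ZT 12, with 9.07 in WT ZT 12 replicate 3. The difference was 2.06 with that array (adjusted p = 0.0135) and 0.97 without it (adjusted p = 0.0472). The call was kept there, and was lost without WT ZT 0 replicate 2 (adjusted p = 0.0545) and without WT ZT 0 replicate 3 (adjusted p = 0.0673).

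**Figure D2:**
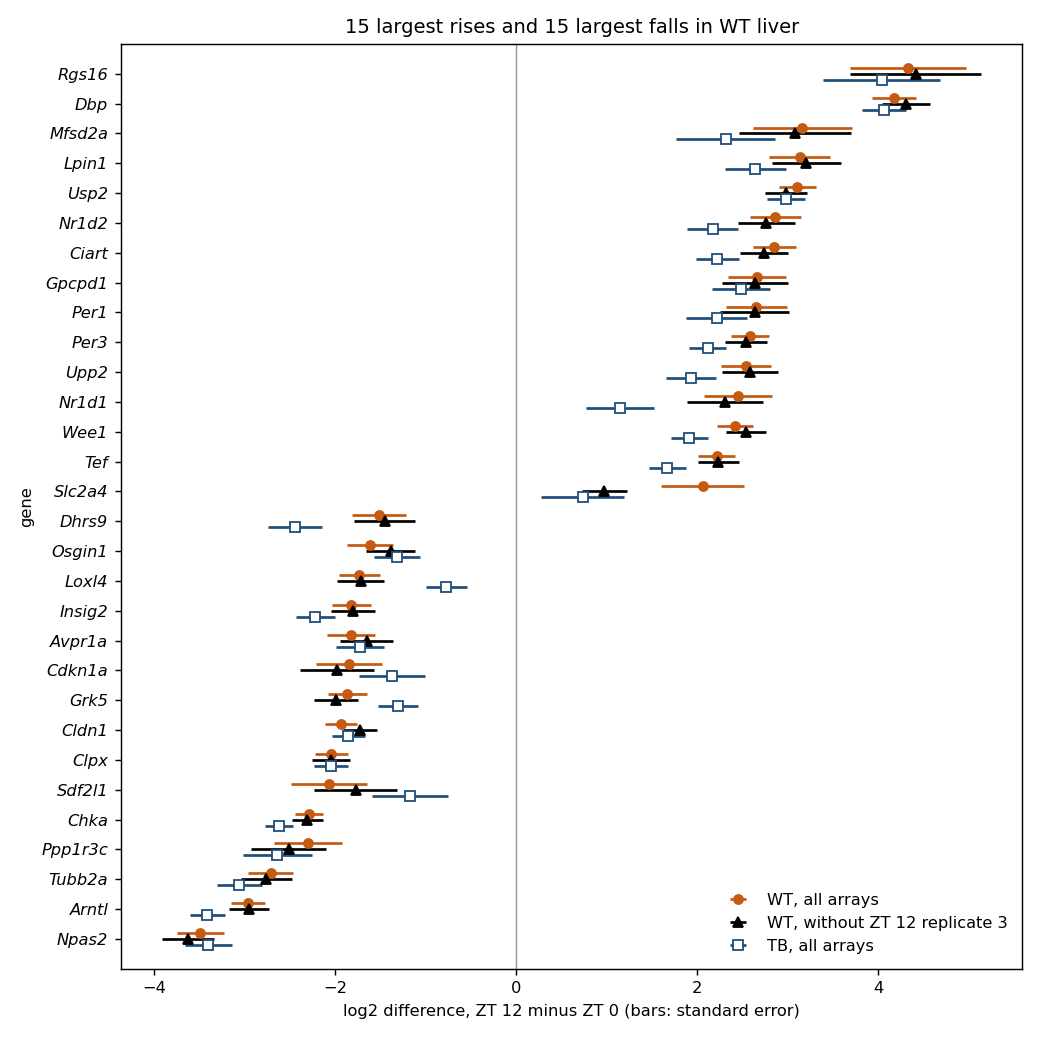
Log2 differences, ZT 12 minus ZT 0, of the 15 largest rises and 15 largest falls in WT liver, with all arrays (circles), without WT ZT 12 replicate 3 (triangles) and in TB liver (squares); bars are standard errors of the fit. Leaving out the array with muscle RNA moves Slc2a4 from 2.06 to 0.97 and the other genes by at most 0.29, and all 30 TB values lie on the same side of 0.

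The largest fall that passed outside the clock was that of Tubb2a, and Ppp1r3c, Chka, Sdf2l1 and Clpx followed, with Ppp1r3c and Sdf2l1 described below among glycogen and protein folding genes. Tubb2a, a beta tubulin, read 9.35, 9.35 and 9.33 at ZT 0 and 6.38, 6.78 and 6.72 at ZT 12, and fell by 2.72 (SE 0.25, adjusted p = 2.04e-08). Chka, choline kinase alpha, the first step of phosphatidylcholine synthesis from choline, went from 9.03, 8.63 and 8.74 to 6.62, 6.37 and 6.54 and fell by 2.29 (SE 0.15, adjusted p = 2.09e-11). Clpx, the unfoldase of a mitochondrial matrix protease, went from 10.38, 10.27 and 10.32 to 8.37, 8.19 and 8.28 and fell by 2.04 (SE 0.19, adjusted p = 1.49e-08). In these 3 genes the arrays of 1 time lay close together and the times far apart. They were at -2.76, -2.31 and -2.05 without WT ZT 12 replicate 3. Cldn1, a tight junction claudin, was at -1.94, the receptor kinase gene Grk5 at -1.87, the vasopressin receptor gene Avpr1a at -1.83, the lysyl oxidase gene Loxl4 at -1.73, Osgin1 at -1.62 and the dehydrogenase gene Dhrs9 at -1.52. Their adjusted p lay between 2.34e-08 and 0.00419, and all 6 passed without WT ZT 12 replicate 3 too.

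Cdkn1a, the cell cycle inhibitor p21, moved opposite to Wee1. It read 8.79, 8.19 and 7.24 at ZT 0 and 6.13, 6.07 and 6.47 at ZT 12, so the ZT 0 arrays were far apart and still all above. Cdkn1a fell by 1.85 (SE 0.37, adjusted p = 0.0045), by 1.98 without WT ZT 12 replicate 3, and its call was lost without WT ZT 0 replicate 1 (adjusted p = 0.059). Wee1 and Cdkn1a were the 1 rise and the 1 fall among 12 measured genes of cell cycle and growth under clock control.

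Over the 6 WT times, ZT 12 was the peak of most risers and the trough of most fallers. Of the 118 genes higher in both calculations, 91 had their highest WT mean at ZT 12, 23 at ZT 8 and 4 at ZT 16, with the ZT 12 mean taken without replicate 3. Their lowest mean was at ZT 0 in 82, at ZT 4 in 22 and at ZT 20 in 14. Of the 78 lower genes, 47 had their lowest mean at ZT 12, 26 at ZT 8 and 5 at ZT 16, and 52 had their highest at ZT 0. These genes were chosen by their ZT 12 and ZT 0 values, so a peak near ZT 12 follows in part from the choice. The clock genes differ in where between the times their extreme lies: Dbp and Nr1d1 were higher at ZT 8 than at ZT 12, while Per1 was highest at ZT 12 and Cry1 lowest at ZT 8.

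**Figure D3:**
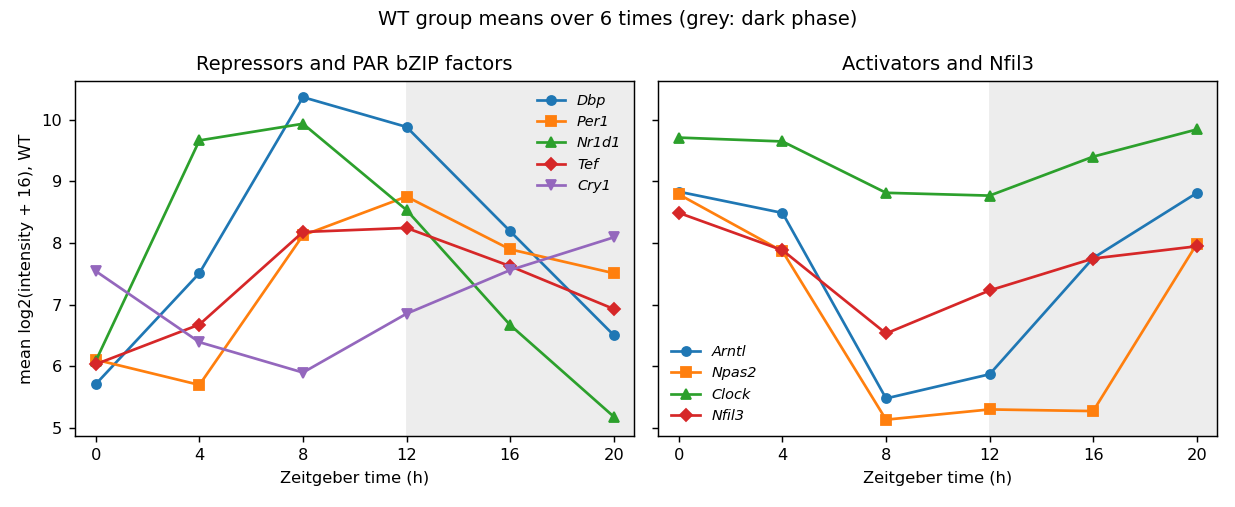
Mean log2(intensity + 16) of 3 WT arrays at each of 6 Zeitgeber times (h), with repressors and PAR bZIP factors on the left and activators and Nfil3 on the right; the grey area is the dark phase. ZT 12 minus ZT 0 catches Dbp, Per1 and Tef near their peak, Nr1d1 on its way down and Cry1 on its way up from its low at ZT 8.

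The WT genes whose 6 time means were most like those of Dbp were Bmp2k, Pla2g12a, Clmn, Tamm41 and Klhl11, with Pearson r from 0.990 to 0.996 over 6 time points. Most like Arntl were Caprin1, Ddc, Clock, Cmah and Leo1, with r from 0.986 to 0.994. The points are means of the same 18 WT arrays, WT ZT 12 replicate 3 included, so these values are descriptions. They were not calculated again without that array. Of the 5 like Dbp, Pla2g12a, a secreted phospholipase, passed with all arrays only (0.79, adjusted p = 0.0422). It was at 0.58 without WT ZT 12 replicate 3, and its call was also lost without any 1 of the ZT 0 arrays or WT ZT 12 replicate 2. The other 4 passed in neither calculation. Of the 5 like Arntl, Cmah passed in neither (-0.21) and Clock is given above. Ddc, the decarboxylase of aromatic amino acids, was at -1.44, Caprin1 at -0.68 and Leo1 at -0.64, and all 3 passed in both calculations.

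Some genes of fat use rose. List counts here and below stand beside 0.938% of all genes that rose and 0.586% that fell with all arrays. Without WT ZT 12 replicate 3 these shares were 0.739% and 0.437%. Of 27 measured genes of fat oxidation and ketogenesis, many of them targets of the receptor PPAR alpha, 5 rose and 0 fell, both with and without WT ZT 12 replicate 3. The list median was 0.52 with that array and 0.38 without it, beside 0.01 over all genes, and 25 and 24 of the 27 lay above 0. Cpt1a, which loads fatty acids into mitochondria, read 10.03, 9.68 and 9.63 at ZT 0 and 10.92, 11.57 and 10.61 at ZT 12 (difference 1.25, SE 0.19, adjusted p = 0.000195). Ppara itself went from 8.43, 8.60 and 8.59 to 9.38, 9.91 and 9.31 (difference 0.99, SE 0.18, adjusted p = 0.00123). In both genes all ZT 12 arrays were above all ZT 0 arrays and WT ZT 12 replicate 3 was the nearest to them. Acadl, a long-chain acyl-CoA dehydrogenase, was at 0.69 (adjusted p = 0.000746). The remaining 2 of the 5, Acot4 at 1.09 and Angptl4 at 1.98, are named after their values were seen. Pnpla2, the triglyceride lipase ATGL, read 8.11, 8.03 and 8.00 and then 8.90, 9.35 and 9.44 (difference 1.18, adjusted p = 0.000253), and was the 1 call among 22 genes of lipoproteins and lipases.

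The genes of phosphatidate phosphatases, a late step of triglyceride assembly, rose. Lpin1 (lipin 1) read 7.14, 7.87 and 8.07 at ZT 0 and 10.75, 11.06 and 10.67 at ZT 12, with a difference of 3.13 (SE 0.34, adjusted p = 4.01e-07). Lpin2 went from 7.80, 8.49 and 8.81 to 10.02, 10.24 and 9.87 (difference 1.67, SE 0.20, adjusted p = 4.22e-06). Both lipins had their lowest ZT 0 value in replicate 1 and groups far apart. They were 2 of 4 rises among 24 measured genes of fatty acid and triglyceride synthesis. The others were Fads2, a desaturase, at 0.76 and Dgat2, the last acyltransferase, at 0.42 (adjusted p = 0.0184 and 0.0452). Dgat2 and Acaca, the carboxylase of fatty acid synthesis, are named after their values were seen. The call of Fads2 was lost without any 1 of WT ZT 0 replicates 1 and 2 and WT ZT 12 replicates 2 and 3. Without WT ZT 12 replicate 3, 4 genes again passed, with Acaca (0.74, adjusted p = 0.0268) in place of Fads2 (adjusted p = 0.0567). Srebf1, the regulator after which the list is named, was at 0.01 and Fasn, fatty acid synthase, at 0.23, neither of them past the threshold. The list median was 0.31 in both calculations, and 0.20 after quantile normalization.

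Among 20 measured genes of cholesterol synthesis 1 was called. Insig2, which holds the SREBP complex in the endoplasmic reticulum and restrains the pathway, read 9.97, 9.81 and 9.76 at ZT 0 and 8.00, 8.07 and 8.00 at ZT 12. It fell by 1.82 (SE 0.22, adjusted p = 2.9e-06), with a gap of 1.69 between the groups. The list median was -0.07 with WT ZT 12 replicate 3 and 0.24 without it.

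Among glucose and glycogen genes 3 of 18 measured members rose and 1 fell, in both calculations. Gys2, the liver glycogen synthase, read 9.82, 9.64 and 9.99 at ZT 0 and 10.77, 11.36 and 10.72 at ZT 12 (difference 1.13, SE 0.20, adjusted p = 0.00147). Ppp1r3c, a subunit that brings protein phosphatase 1 to glycogen, went the other way, from 9.78, 9.77 and 9.24 to 6.88, 7.28 and 7.73, and fell by 2.30 (SE 0.38, adjusted p = 0.000472). Its ZT 12 arrays were spread widely, yet a gap of 1.51 divided them from ZT 0. Slc2a2, the glucose transporter GLUT2, went from 10.39, 10.62 and 10.99 to 11.45, 11.89 and 11.55 (difference 0.96, adjusted p = 0.00972), and is named after its values were seen. Pfkfb3, which makes an activator of glycolysis, was at 0.89 (adjusted p = 0.000801). Without WT ZT 12 replicate 3, Gys2 was at 1.25, Ppp1r3c at -2.52, Slc2a2 at 1.00 and Pfkfb3 at 0.97.

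In gluconeogenesis 2 of 12 measured genes rose with and without WT ZT 12 replicate 3, beside 0.938% and 0.739% of all genes. Slc37a4, the glucose-6-phosphate translocase, read 8.86, 9.00 and 9.42 and then 10.16, 10.12 and 9.89 (difference 0.96, adjusted p = 0.00706), and its call was lost without WT ZT 0 replicate 1 (adjusted p = 0.0627). Foxo1, a transcription factor of the fasting response, was at 0.65 (adjusted p = 0.00484). With the mean of a gene's probe sets in place of the brightest, Foxo1 was at 0.48 and did not pass (adjusted p = 0.0673), which left 1 rise in the list. The 2 classic rate-setting enzymes did not pass. Pck1 read 10.63, 11.65 and 10.60 and then 12.30, 12.09 and 11.94, groups that did not overlap (1.15, adjusted p = 0.102). G6pc, with overlapping groups, was at 0.30 (adjusted p = 0.82). They were at 1.23 and 0.35 without WT ZT 12 replicate 3 and did not pass.

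**Figure D4:**
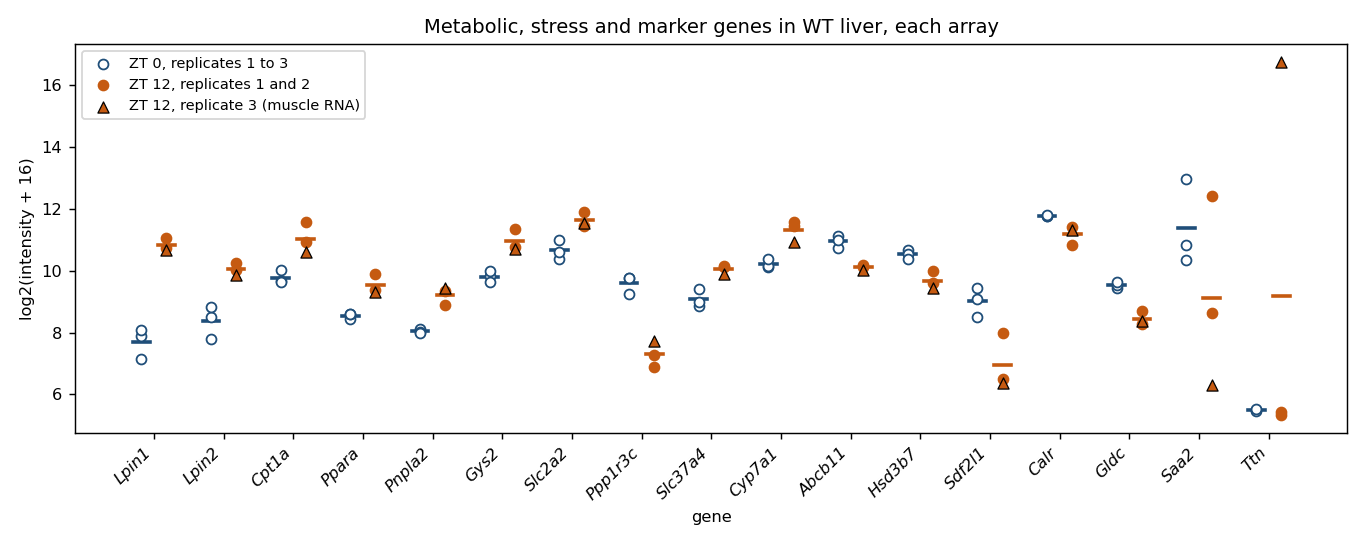
Log2(intensity + 16) on each of the 6 WT arrays for genes of lipid, glucose and bile acid metabolism, protein folding, and 2 marker genes; symbols are open circles for ZT 0, filled circles for ZT 12 replicates 1 and 2, triangles for ZT 12 replicate 3, and bars for means. Lpin1 and Ppp1r3c separate the times by wide gaps, Saa2 is spread from 6.31 to 12.96 with the times overlapping, and Ttn is high in the array with muscle RNA alone.

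In bile acid synthesis and transport 3 of 22 measured genes rose and 2 fell with all arrays, and 4 rose and 0 fell without WT ZT 12 replicate 3. Cyp7a1, the rate-limiting enzyme of bile acid synthesis, read 10.13, 10.14 and 10.38 at ZT 0 and 11.45, 11.58 and 10.94 at ZT 12. These groups did not overlap, but its 1.11 did not pass with all arrays (adjusted p = 0.0603), while 1.30 did without WT ZT 12 replicate 3 (adjusted p = 0.0494). Abcb11, the bile salt export pump, read 10.75, 11.13 and 10.99 and then 10.19, 10.12 and 10.03. It fell by 0.84 (adjusted p = 0.0177) with all arrays. Hsd3b7, a step after Cyp7a1, fell by 0.86 (adjusted p = 0.014). Without WT ZT 12 replicate 3 these were 0.80 and 0.74 lower and did not pass (adjusted p = 0.0716 and 0.0941). The call of Abcb11 was also lost without WT ZT 0 replicate 2 or 3, and that of Hsd3b7 without WT ZT 0 replicate 1 or 2. The canalicular exporter gene Abcc2 (0.43), the sterol exporter gene Abcg5 (1.02) and the uptake transporter gene Slco1a4 (1.65) made up the 3 rises, the last 2 named after their values were seen. The call of Abcc2 was lost without WT ZT 0 replicate 1 or 2 and without WT ZT 12 replicate 2, with adjusted p from 0.0678 to 0.142.

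Among 25 measured genes of the unfolded protein and integrated stress responses, 6 fell and 1 rose with all arrays, and 2 fell and 0 rose without WT ZT 12 replicate 3. The list median was -0.47 and -0.32, and 20 and 19 of 25 lay below 0. Sdf2l1, an endoplasmic reticulum chaperone partner, read 9.44, 9.09 and 8.50 at ZT 0 and 7.97, 6.50 and 6.36 at ZT 12. It fell by 2.07 (SE 0.42, adjusted p = 0.00554) and by 1.78 (adjusted p = 0.0483) without that array. Calr, the calcium-binding chaperone calreticulin, was level at ZT 0 (11.77, 11.77 and 11.80) and lower at ZT 12 (11.40, 10.84 and 11.31), and fell by 0.60 (adjusted p = 0.0191). Leaving out WT ZT 0 replicate 1 ended the call of Sdf2l1 (adjusted p = 0.0501), and leaving out any ZT 0 array or WT ZT 12 replicate 2 ended that of Calr (adjusted p from 0.0574 to 0.155).

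Atf4, the central transcription factor of the integrated stress response, fell by 0.70 with all arrays (adjusted p = 0.0223) and was 0.67 lower without WT ZT 12 replicate 3 (adjusted p = 0.0829), and its call was also lost without WT ZT 0 replicate 1 or 2 or WT ZT 12 replicate 2. The other 3 falls, Dnajb11, Edem1 and Syvn1, and the 1 rise, Herpud1, are named after their values were seen, and none passed without that array. The list of heat shock and cold-inducible genes lay at a median of -0.31 with 0 of 17 called. Tars, a threonine tRNA ligase counted among known rhythmic outputs, read 10.24, 10.15 and 10.04 and then 9.16, 8.89 and 8.64, and fell by 1.25 (adjusted p = 1.25e-07), or by 1.12 without that array.

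Glucocorticoid receptor targets gave 4 rises among 18 measured genes with all arrays and 2 without WT ZT 12 replicate 3. The 2 that passed both times, Rgs16 and Per1, are also counted above. Zbtb16, a zinc finger factor, read 7.10, 7.50 and 6.86 and then 8.64, 8.43 and 9.24, highest in WT ZT 12 replicate 3 (1.62, adjusted p = 0.00706; 1.38 and 0.0577 without it). Fkbp5, a co-chaperone of the receptor named after its values were seen, was at 1.40 (adjusted p = 0.0369) and at 1.50 (adjusted p = 0.0622). In amino acid breakdown, Gldc, the glycine cleavage decarboxylase, went from 9.44, 9.55 and 9.64 to 8.71, 8.27 and 8.37 and fell by 1.09 (adjusted p = 7.92e-05), or by 1.05 without WT ZT 12 replicate 3. Cbs, of the transsulfuration pathway, fell by 0.70 (adjusted p = 0.033) with all arrays and was 0.64 lower without WT ZT 12 replicate 3 (adjusted p = 0.124), and its call was also lost without WT ZT 0 replicate 1 or 2 or WT ZT 12 replicate 2. They were the 2 calls among 27 measured genes of the urea cycle and amino acid breakdown.

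Calls in lists of signalling and detoxification stand beside 1.52% of all genes called with all arrays. Interleukin 6 and STAT3 signalling gave 2 rises and 1 fall among 17 measured genes. Phase II conjugation and NRF2 gave 1 rise and 1 fall among 29. Insulin and IGF signalling gave 1 rise among 22, and xenobiotic P450 and heme synthesis 1 rise among 27. Without WT ZT 12 replicate 3 the first of these lists gave 2 rises and 0 falls, and the others gave 0 calls. Ppard, the delta member of the PPAR family, read 7.82, 7.65 and 7.71 and then 6.27, 6.34 and 6.84, and fell by 1.24 (adjusted p = 0.00232). It was the 1 call with all arrays in a list of 22 measured nuclear receptors. That list leaves out Nr1d1, Nr1d2 and Ppara, which are called nuclear receptors counted in other lists above. Without WT ZT 12 replicate 3, Ppard was at -1.42 (adjusted p = 0.00168) and Nr1i2 also passed, at 0.68 (adjusted p = 0.0254). Pim3, a serine kinase, was at 1.06 (adjusted p = 0.000212) and Il6ra, the interleukin 6 receptor, at 1.29 (adjusted p = 0.0466), and both passed without WT ZT 12 replicate 3. The call of Il6ra was lost without any 1 of the other 5 arrays (adjusted p from 0.0852 to 0.191). Bcl3 at -1.06 (with overlapping groups), Foxo3 at 0.63, Nqo1 at 0.88 and Gclc at -1.13 passed with all arrays and not without WT ZT 12 replicate 3. Nqo1, a quinone reductase, was highest in that array. Cyp2a4, a steroid-hydroxylating P450, read 8.05, 7.90 and 8.60 and then 9.29, 9.18 and 9.39, and likewise passed only with all arrays (adjusted p = 0.0161 and 0.0648). Each of these 5 calls was also lost without WT ZT 0 replicate 2, those of Bcl3, Foxo3, Nqo1 and Cyp2a4 without WT ZT 0 replicate 1, that of Gclc without WT ZT 0 replicate 3, and those of Bcl3 and Foxo3 without WT ZT 12 replicate 2. Alas1, the first enzyme of heme synthesis, read 11.01, 10.63 and 10.38 and then 11.93, 12.13 and 11.28, and its 1.11 did not pass (adjusted p = 0.19).

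Acute phase genes and markers of liver macrophages varied between arrays of the same time. Saa2, a serum amyloid of the acute phase, read 10.36, 12.96 and 10.85 at ZT 0 and 12.42, 8.62 and 6.31 at ZT 12. Its high arrays were WT ZT 0 replicate 2 and WT ZT 12 replicate 1, and the -2.27 between the times had an SE of 1.09 and did not pass (adjusted p = 0.421). The mean of 13 Kupffer cell and macrophage markers was 7.42, 8.19 and 7.60 at ZT 0 and 8.12, 7.36 and 6.86 at ZT 12, highest in the same 2 arrays. In bulk liver, fewer cells of a type and less RNA per cell cannot be told apart. Of 25 measured acute phase genes 1 fell, Crp, by 0.61 (adjusted p = 0.0165), with groups that overlapped. It did not pass without WT ZT 12 replicate 3 (adjusted p = 0.0912), nor without WT ZT 0 replicate 1 or 2 or WT ZT 12 replicate 2. The list median was -0.34 with WT ZT 12 replicate 3 and -0.07 without it. Leaving out both high arrays, a choice made after seeing the data, gave 426 called genes, 297 higher and 129 lower. The part of these markers in the other results was not tested.

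Oxidative phosphorylation genes shifted little and none of 30 passed in either calculation. With all arrays 28 of 30 lay above 0, with a median of 0.18. Without WT ZT 12 replicate 3 it was 23 of 30 with a median of 0.09. In TB 0 of 30 lay above 0, with a median of -0.12. Ribosome biogenesis lay at a median of 0.15 with 0 of 21 called, and at 0.27 with 1 called, nucleolin (Ncl), without that array. Among endothelial markers 1 of 12, the sinusoidal lectin gene Clec4g, fell by 0.70 (adjusted p = 0.0405) with all arrays and was 0.55 lower without WT ZT 12 replicate 3 (adjusted p = 0.211). The calls of Clec4g and Neb were also lost without any 1 of the 3 ZT 0 arrays. Among muscle markers 1 of 30, Neb (nebulin), passed with all arrays at 1.85, and 0 of 30 without, where the list median went from 1.99 to 0.06.

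The medians of the lists for fat oxidation, fatty acid and triglyceride synthesis, unfolded protein response, heat shock and oxidative phosphorylation kept their sign under each of 5 other scalings and summaries. Some medians nearer 0 did not. Cholesterol synthesis went from -0.07 to 0.14 with limma's array weights. The lists of glycolysis, the urea cycle, lipoproteins, iron and copper, and mitochondrial genes also changed sign under some setting. The calls among the 25 unfolded protein genes were 9 falls and 0 rises after quantile normalization and 3 falls and 0 rises with a pseudocount of 1. With array weights they were 11 falls and 0 rises. Those among the 24 genes of fatty acid and triglyceride synthesis were 2, 3 and 7 rises under these settings in turn.

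**Figure D5:**
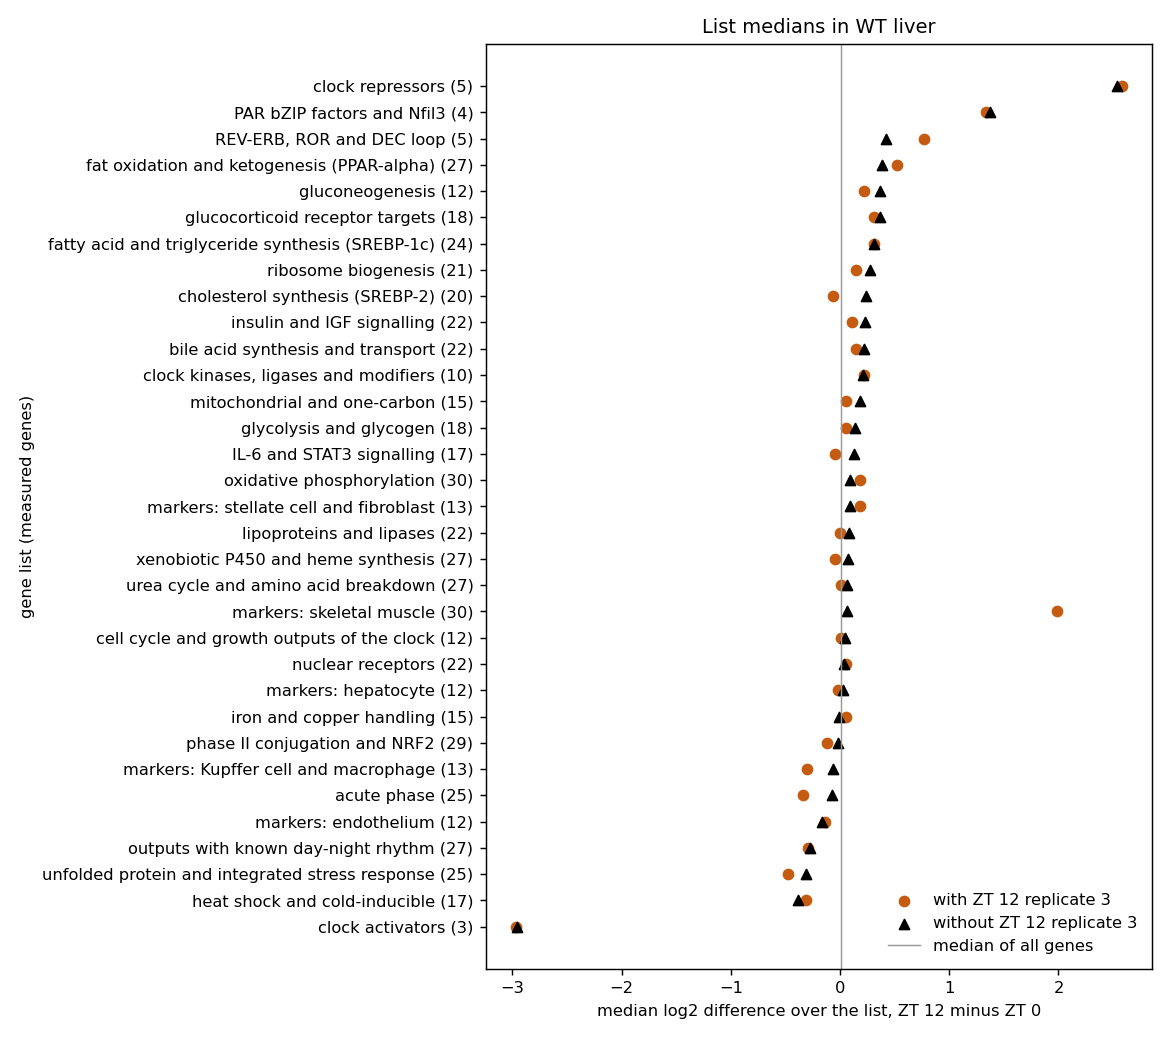
Median log2 difference, ZT 12 minus ZT 0, over the measured genes of each list (number in brackets), with WT ZT 12 replicate 3 (circles) and without it (triangles), ordered by the latter; the grey line is the median of all genes, 0.01. Clock repressors lie at the top and clock activators at the bottom in both, and the skeletal muscle markers move from 1.99 to 0.06.

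The position of WT ZT 12 replicate 3 differed with the class of call. Among the 142 genes called only with it, it was the ZT 12 array farthest from ZT 0 in 91 and nearest in 8. The way these 142 genes were selected favours a far position of that array. Among the 65 called only without it, it was nearest to ZT 0 in 65, which the way these genes were selected favours. Among the 196 called both ways it was farthest in 51, nearest in 82 and between in 63. Of the genes called only with it, Zbtb16 was given above, and Pdgfd, a growth factor, read 5.40, 5.32 and 5.28 and then 5.70, 5.80 and 6.22. Its difference went from 0.57 (adjusted p = 0.00542) to 0.42 (adjusted p = 0.0727). Dpp9 (-0.81), the tubulin gene Tuba1c (-0.76) and Ddhd1 (-0.79) likewise passed only with it, and were also lost without WT ZT 0 replicate 1 (Dpp9) or 2 (Tuba1c and Ddhd1). Of the genes called only without it, Sirt3, a mitochondrial deacetylase, read 7.94, 7.97 and 7.83 and then 8.71, 8.81 and 8.04, the last near the ZT 0 values. Its 0.61 (adjusted p = 0.0732) became 0.85 (adjusted p = 0.00655). The urate transporter gene Slc2a9 (0.53 to 0.81), Coq8a (-0.66 to -1.04), Ncl (0.47 to 0.67) and Ccr8 (0.43 to 0.79) were alike in this.

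Most genes called in WT liver had the same sign in TB liver. In TB, 316 genes (1.42%) passed between ZT 12 and ZT 0, 98 higher and 218 lower. Both mice called 149 genes, which were 44.1% of the 338 in WT and 47.2% of the 316 in TB, and all 149 had the same direction. No array is shared between these comparisons. Of the 338 WT genes, 316 (93.5%) had the same sign in TB, against 55.6% of all genes. Without WT ZT 12 replicate 3 it was 236 of 261 (90.4%), with 121 called in both. Across all genes the WT and TB differences correlated at Pearson r 0.420 and Spearman rho 0.216 (0.411 and 0.148 without that array), genes not being independent replicates. List medians did not all keep their sign in TB. Fatty acid and triglyceride synthesis was at 0.31 in WT and -0.21 in TB. Cholesterol synthesis was at -0.07 in WT, 0.24 without that array, and -0.57 in TB. Fat oxidation (0.52 and 0.25) and the unfolded protein list (-0.47 and -0.45) kept theirs. These medians were not tested.

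No gene passed the test of the difference between the WT and TB time differences. Limma called 0 genes with all arrays and 0 without WT ZT 12 replicate 3, with 1226 and 1523 genes at an unadjusted p under 0.05 and lowest adjusted p of 0.12 and 0.371. Nr1d1 was at 2.45 in WT and at 1.14 in TB, where it did not pass (adjusted p = 0.167), and the difference between them, 1.30, did not pass either (adjusted p = 0.899). Dbp was at 4.17 and 4.06, Arntl at -2.96 and -3.41, and Clpx at -2.04 and -2.05. The 5 genes with the smallest p for WT above TB were Ank3, Nqo1, Capn6, Idh2 and Rhoq, ranked with all arrays. Their WT difference exceeded that in TB by 0.97, 1.24, 0.83, 1.30 and 1.12, and by 0.88, 0.95, 0.93, 0.83 and 0.72 without WT ZT 12 replicate 3. Leaving out WT ZT 12 replicate 3 moved the WT difference of Nqo1 from 0.88 to 0.58, of Idh2 from 0.96 to 0.48 and of Rhoq from 1.06 to 0.65, while Ank3 went from 0.86 to 0.77 and Capn6 from 0.64 to 0.74. The WT calls of Nqo1 and Idh2 were lost (adjusted p = 0.185 and 0.199). Ank3, the membrane adaptor ankyrin G, read 6.44, 6.71 and 6.67 and then 7.31, 7.44 and 7.65 in WT, a rise of 0.86 (adjusted p = 0.00135), and was at -0.11 in TB. For WT below TB they were Wif1, Cage1, Tnfsf14, Cryga and Tbkbp1. Wif1, a secreted Wnt inhibitor, went from 7.43, 7.21 and 7.45 to 6.73, 6.77 and 6.75 in WT, fell by 0.61 (adjusted p = 0.00972), and was at 0.42 in TB. It was at -0.61 without WT ZT 12 replicate 3 as well. The WT call of Wif1 was lost without WT ZT 0 replicate 1 or 3 (adjusted p = 0.0548 and 0.0513).

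The 36 arrays were split into sets of 24 and 12 by sign along a first component. It was taken from deviations from group means in the 16010 probe sets without a gene symbol, not in the genes tested. It held 28.6% of the variance of those probe sets. WT ZT 0 replicate 3 and WT ZT 12 replicate 3 lay in the smaller set, so each time had 2 arrays in the larger. With the set as a block 595 genes passed, 358 higher and 237 lower, and within the larger set alone 266 passed, 146 higher and 120 lower. Of the 174 genes that the naming rules chose 79 were called, and 44 of these kept the call under all 17 other settings, the leave-one-out fits included. Some rules chose genes by their calls with and without WT ZT 12 replicate 3 or by small p. The share kept is therefore not a rate for all called genes. They include Arntl, Npas2, Clock, Nfil3, Per1, Per3, Ciart, Nr1d1, Nr1d2, Dbp, Tef, Usp2, Nampt, Lpin1, Lpin2, Cpt1a, Ppara, Gys2, Ppp1r3c, Insig2 and Gldc.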

How the data were processed

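RNA of mouse liver was measured on 36 1-colour Affymetrix arrays, 12 groups of genotype and time with 3 arrays each; groups and replicate numbers came from the titles. The deposited values are linear intensity per probe set, made by the authors with Affymetrix Expression Console 1.1.1 and PLIER 2.0, per the submitters' processing notes; no source used here gives their settings or any scaling of arrays. Medians of the arrays lay at 36.3 to 43.3 and 23.0% of values were under 16. The number of arrays limits the precision.

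Of 41345 probe sets, 23521 had 1 gene symbol, 1814 several and 16010 none in the platform annotation, and 23328 matched RefSeq (GRCm38.p6) by Entrez identifier. For genes with several probe sets (1082) the 1 with the highest mean was kept, leaving 22180 genes. Values were turned into log2(intensity + 16). Limma 3.58.1 (R 4.3.3, lmFit and eBayes) fitted 12 group means over all 36 arrays, so that groups share 1 estimate of spread, and again over 35 arrays without WT ZT 12 replicate 3. P-values were Benjamini-Hochberg adjusted over all genes, with the threshold at 0.05. The calculation was tested on simulated data.

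The genes, gene lists (637 of 704 symbols measured) and tests were chosen with earlier results of these data known. Genes were named by these rules: the 15 largest rises and falls called in both fits with groups that do not overlap, all clock genes, up to 3 genes by smallest p per list, the 5 smallest p each way against TB, the 5 called only with or only without the muscle array, the 5 most like Dbp and Arntl, and a few genes named whatever their values, among them Cyp7a1, Srebf1, Fasn, Pck1, G6pc, Alas1, Igfbp1, Saa2, Ttn and Ckm. Genes outside the rules are marked where named. The 12 marker lists were hepatocyte, muscle, Kupffer cell, endothelium, stellate cell, cholangiocyte, neutrophil, lymphocyte, red cell, fat, pancreas and gut; lists with no call are shown by their median or left to the closing section. Some genes of the lists and the TB alleles' genes are not reported here.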

Additional observations from a re-analysis of the deposited data

Results flagged for a closer look

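Among the 174 genes that the naming rules chose, there were 3 in which the 3 arrays of ZT 12 lay all on one side of ZT 0 in WT liver and all on the other side in TB liver. The WT time difference exceeded that of TB by 0.38 in Sdhd, a subunit of succinate dehydrogenase, and was below it by a difference of -1.03 in Wif1 and of -0.59 in Tbkbp1. Limma's test of this difference called none of the 3 (adjusted p = 0.859 for Sdhd, 0.12 for Wif1 and 0.859 for Tbkbp1). Wif1 and Tbkbp1 were named for a small p in this same test, a choice that favours opposite directions. Over all 22180 genes, 58 had groups apart in opposite directions in WT and TB, and 523 in the same direction.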

How the results depend on the processing

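Against 338 called genes, the array set as a block gave 595, the 6 WT arrays alone 56 and the 5 left without WT ZT 12 replicate 3 alone 65. Fits that left out 1 WT array gave 208 to 722. The 261 genes called without that array became 416 with the array set as a block. For the difference between WT and TB the counts lay between 0 and 2 when 1 array was left out, the 2 being Sult1e1 (5.26) and Wif1 (-1.12) without TB ZT 0 replicate 2 (Sult1e1 is named after its values were seen). The cause was not tested. The other settings, among them a pseudocount of 1, gave 254 to 493 and 205 to 350. The replicate number as a block gave 312 and 222. In WT the same numbers deviated together by r = 0.01, 0.07 and 0.24, and 1 of the 3 numbers correlated best with itself. In TB the same numbers deviated together by r = 0.36, 0.38 and 0.48. The main fit did not pair the arrays in either genotype. Of the 79 named calls, the muscle marker mean as a covariate lost 24, the larger array set 19 and leaving out 1 array 3 to 25. No named call changed sign. With 3 arrays a group, a gene that was not called may still differ.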

Other observations

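Several lists held no called gene in WT liver between these times. Markers of cholangiocytes, neutrophils, lymphocytes, red cells, fat cells, exocrine pancreas and gut epithelium gave 0 calls each, with medians from -0.13 in exocrine pancreas to 0.16 in fat cells. The summed intensity of the 8 fat cell markers was 332 to 634 in 5 arrays and 1047 in WT ZT 12 replicate 3, and that of the 13 stellate cell and fibroblast markers 3372 to 4761 and 7901. The 30 muscle markers summed to 1261 to 1570 in 5 arrays and to 339972 in that array. Iron and copper genes gave 0 calls of 15 with it and 1, the copper transporter gene Atp7b at 0.55, without it. Genes of mitochondrial and one-carbon metabolism gave 0 of 15 in both calculations. Igfbp1, a binding protein that rises in fasting liver, read 6.76, 8.32 and 8.58 at ZT 0 and 8.93, 8.17 and 6.54 at ZT 12, with the times overlapping throughout.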
